A study of Mus musculus with 4 samples.

Results

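The nuclei described here came from mouse aortic tissue and were chosen by the genes they contained, with a rule built around Ddah1 and Edn1 that was meant to catch endothelial nuclei of atherosclerotic lesions. A nucleus was counted in when at least 300 genes were detected, at most 10% of its unique molecular identifiers (UMIs, each standing for 1 captured RNA molecule) were mitochondrial, and at least 3 of the 9 genes Ddah1, Frmd5, Edn1, Slit2, Sox4, Bmp6, Kif26b, Nfasc and Atp8b1 had a UMI. It also had to hold a UMI for at most 1 of 14 genes that mark other endothelial types (Lrrc3b, Crispld1, Rph3al, Adarb2, Adgrg6, Prox1, Mmrn1), macrophages (Csf1r, Ms4a7), fibroblasts (Pdgfra), smooth muscle (Myh11), adipocytes (Adipoq, Ucp1) or mesothelium (Muc16). The rule was met by 22610 of 107709 nuclei that passed the quality limits (21%), and these are called rule nuclei below.

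All mice carried a knock-in of CA1 (carbonic anhydrase 1, mouse gene Car1) and lacked ApoE, which leaves mice prone to atherosclerosis, so every group shares both alterations and no wild-type group was included. The groups were mice on high-fat food that received methoxazolamide (abbreviated MTZ by the submitters and named by them as an inhibitor of CA1) once atherosclerosis was present (MTZ-after), mice that received it together with the high-fat food (MTZ-simultaneous), mice on high-fat food alone (high-fat) and mice that were left untreated (untreated). Each group was 1 single-nucleus 3' RNA library. Age, dose, diet duration, the promoter and species of the CA1 insert and the number of mice per library are not given in the sources used here. With 1 library per group no spread between animals could be measured, so no test was possible, and every interval below is a 95% interval that covers counting error only.

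Endothelial cells line every vessel, and in arteries they set vessel tone, hold back clotting and control which leukocytes enter the wall. They read the drag of flowing blood: steady flow keeps the transcription factors Klf2 and Klf4 high, and with them nitric oxide production, whereas disturbed flow favours adhesion molecules for leukocytes and plaque formation. Ddah1 breaks down asymmetric dimethylarginine (ADMA), a natural inhibitor of nitric oxide synthases, and Edn1 encodes the precursor of endothelin-1, a strong vasoconstrictor. Among the other rule genes, Bmp6 encodes a bone morphogenetic protein, Slit2 a secreted ligand of Robo receptors, Sox4 a transcription factor, Nfasc a cell adhesion molecule, Kif26b a kinesin-family protein of Wnt5a-Ror signalling, Frmd5 a FERM-domain protein of cell contacts and Atp8b1 a phospholipid flippase.

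The promoters of 2 genes are shown because the results return to them. They were chosen with the values known. Klf2 was one of the flow-response genes at least 2-fold lower in the high-fat than in the untreated library. Edn1 gave the rule its name, and as the rule selected on it, its level is no finding. Both sequences are RefSeq windows of GRCm38.p6 on the plus strand, at chr8:72318812-72319111 for Klf2 and chr13:42301226-42301525 for Edn1. They reach from 250 bases before the start used for the window to 50 bases after it. For Edn1 this is the gene start given below, and for Klf2 it lies downstream of the gene start given below (chr8:72319033). Capitals mark, in Klf2, a match to the palindromic core bound by MEF2 factors (CTA and TAG with any 4 letters between them), and in Edn1 a match to AGATAA, the letters bound by GATA factors, read from the opposite strand.
Klf2: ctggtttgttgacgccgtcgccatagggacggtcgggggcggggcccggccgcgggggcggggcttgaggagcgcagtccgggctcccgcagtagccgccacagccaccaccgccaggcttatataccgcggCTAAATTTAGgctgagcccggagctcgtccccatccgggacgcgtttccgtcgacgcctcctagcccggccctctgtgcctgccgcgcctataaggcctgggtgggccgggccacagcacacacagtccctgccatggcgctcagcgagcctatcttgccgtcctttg
Edn1: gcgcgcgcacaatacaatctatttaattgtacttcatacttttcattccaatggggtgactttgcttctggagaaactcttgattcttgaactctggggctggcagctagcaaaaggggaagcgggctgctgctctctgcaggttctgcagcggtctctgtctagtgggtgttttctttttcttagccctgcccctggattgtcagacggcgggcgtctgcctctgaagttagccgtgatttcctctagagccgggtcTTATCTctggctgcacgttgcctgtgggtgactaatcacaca
The Klf2 match began 118 bases before the start used for its window, and the Edn1 match lay just after the start used for its own. Letters of this kind occur in 3.69% of 32851 RefSeq promoter windows of the same length for the MEF2 core and in 11.2% for AGATAA, on either strand. The windows of Klf2 and Edn1 held no TGANTCA (AP-1 factors, in 7.81% of windows) and no TGACGTCA (CREB factors, in 1.79%), and those of Fosb, Slit2, Dkk2, Adamts1, Ptgs2, Sox4 and Ddah1 held none of the 4 motifs. A match describes letters only.

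Rule nuclei made up 12.3% of nuclei in MTZ-after (3463 of 28093, interval 11.9 to 12.7), 16.4% in MTZ-simultaneous (3160 of 19261, 15.9 to 16.9), 34.1% in high-fat (12967 of 38016, 33.6 to 34.6) and 13.5% in untreated (3020 of 22339, 13.1 to 14.0). The high-fat share was the only one that stood far apart, and it remained the highest under every other limit tried on the rule. The endothelial-like nuclei described below were 3.6% of all nuclei in MTZ-after, 6.3% in MTZ-simultaneous, 8.07% in high-fat and 4.92% in untreated. High-fat was again the highest, with MTZ-simultaneous next. Depth differed between libraries: rule nuclei held a median of 1130, 1774, 1168 and 2334 UMIs in the same order, and nuclei outside the rule 796, 1316, 892 and 1967. When every nucleus was thinned to 500 UMIs, the shares were 5.58, 6.27, 14.7 and 4.13%. Between pairs of libraries 118 to 376 cell barcodes were the same, of which 2 to 13 were rule nuclei in both.

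Car1, the mouse gene of the enzyme that was knocked in, was counted in all 4 libraries. In rule nuclei it had 64.8 CPM (counts of a gene per 1000000 counts of all genes in the summed nuclei) in MTZ-after, 160.4 in MTZ-simultaneous, 90.8 in high-fat and 174 in untreated. Nuclei outside the rule had 62.6, 149, 83.8 and 120.4 CPM, so Car1 was not confined to rule nuclei. Apoe had 10.9, 9.43, 9.04 and 12.5 CPM in rule nuclei. Counts of 3' ends do not check the genotype, because the sources used here do not give the design of either allele.

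The data went against reading all rule nuclei as endothelial. Clustering of the rule nuclei gave 9 subclusters. Of those with at least 200 nuclei, just 1, with 6392 nuclei (28.3%), was led by endothelial genes, namely Selp, Sele, Plvap and Egfl7. Its other leading genes included Pcdh15, Fam155a, Hs3st4 and Lcn2. Selp and Sele encode the selectins that catch rolling leukocytes, Plvap a component of endothelial fenestrae and caveolae, and Egfl7 a secreted endothelial protein. Leading genes were taken over all libraries together, and Hs3st4 and Lcn2 differed widely between libraries, as given below. This subcluster is called endothelial-like from its pan-endothelial markers. It was chosen as the subcluster of at least 200 nuclei with the highest summed level of 10 pan-endothelial genes, listed below. It held 1011 nuclei (29.2% of the rule nuclei) in MTZ-after, 1213 (38.4%) in MTZ-simultaneous, 3068 (23.7%) in high-fat and 1100 (36.4%) in untreated. With a second clustering seed the subcluster chosen in the same way held 5297 nuclei, and 5060 of them were among the 6392 (79.2% of these).

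Of the other subclusters, 1 with 8064 nuclei was led by Ms4a7, Msr1 and Cd84, genes of macrophages, and by St18 and Atp6v0d2. It held 56.9% of the high-fat rule nuclei, against 10.8% in MTZ-after, 6.9% in MTZ-simultaneous and 3.08% in untreated. Another of 1337 nuclei was led by Ctsl, Mmp12, Spp1 and Gpnmb, genes known from lipid-laden macrophages, and held 9.18% of the rule nuclei in high-fat and 0.722 to 2.45% in the other libraries. A brown adipocyte-like subcluster of 2945 nuclei (Ucp1, Cidea, Ppargc1a) held 44.9% of the rule nuclei in untreated, and 11.2, 19 and 4.64% in MTZ-after, MTZ-simultaneous and high-fat. A subcluster of 1315 nuclei led by Caln1, Nrg3 and Akr1cl came to 36.2% of the rule nuclei in MTZ-after and to under 1% elsewhere, and its 6 adrenal cortex markers summed to 438 CPM. The remaining subclusters were a smooth muscle-like one (891 nuclei, Myh11, Itga8), a B cell-like one (83 nuclei, Pax5, Bank1), and unnamed ones of 1539 nuclei (Muc16, Wt1) and 44 nuclei (Nrg1, Gpm6a, Emcn). The 44 nuclei, all from high-fat, had 7084 CPM of pan-endothelial genes, beside 10960.1 CPM in the endothelial-like subcluster. They were fewer than the minimum of 200 nuclei set for choosing that subcluster.

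**Figure D1:**
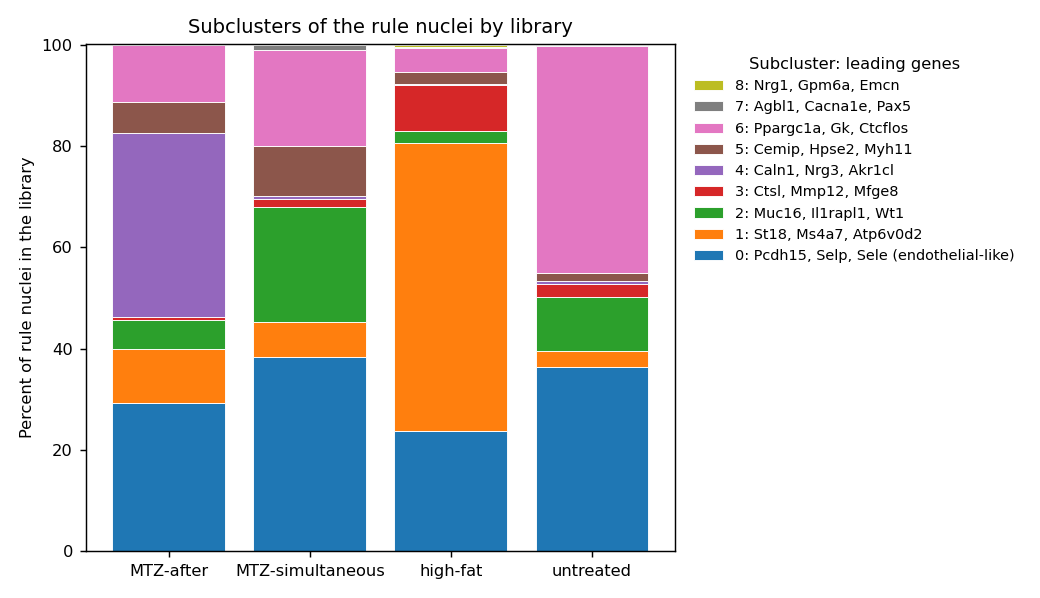
Share of rule nuclei in each of the 9 subclusters (stacked, percent of the library's rule nuclei) for MTZ-after, MTZ-simultaneous, high-fat and untreated. The endothelial-like subcluster, at the bottom, holds 29.2, 38.4, 23.7 and 36.4%, and a different subcluster is large in MTZ-after, in high-fat and in untreated.

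The 10 pan-endothelial genes (Pecam1, Cdh5, Ptprb, Tek, Flt1, Erg, Egfl7, Cyyr1, Tie1, Mecom) were each higher in endothelial-like rule nuclei than in the other rule nuclei, and than in nuclei outside the rule, in all 4 libraries. Since the subcluster was chosen by the sum of these genes, its level above the other rule nuclei describes that choice. The 10 genes summed to 11295 CPM in MTZ-after, 10517 in MTZ-simultaneous, 10019.8 in high-fat and 12381 in untreated in endothelial-like nuclei. The other rule nuclei had 6663, 5395, 5630.3 and 5183 CPM and nuclei outside the rule had 5359.9, 4669, 4690.0 and 3856 CPM. Nuclei outside the rule include other endothelial nuclei, such as those of the Lrrc3b type described below. Within the rule nuclei, the subclusters other than the endothelial-like one had 4489 to 7084 CPM of the 10 genes. Nuclei with UMIs for at least 4 of 8 macrophage genes also held UMIs for at least 3 of the 9 rule genes in 29.5% of cases in MTZ-after, 35.9% in MTZ-simultaneous, 53% in high-fat and 31.3% in untreated, at median depths of 2058, 2721, 1986 and 4502 UMIs. Thinned to 500 UMIs these shares were 3.83, 3.68, 10.4 and 1.25%, against 56.1, 40.1, 55.3 and 35.6% of endothelial-like nuclei, which had been chosen for those genes. Because of this mixture, results are given first for the endothelial-like rule nuclei and then for all rule nuclei.

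**Figure D2:**
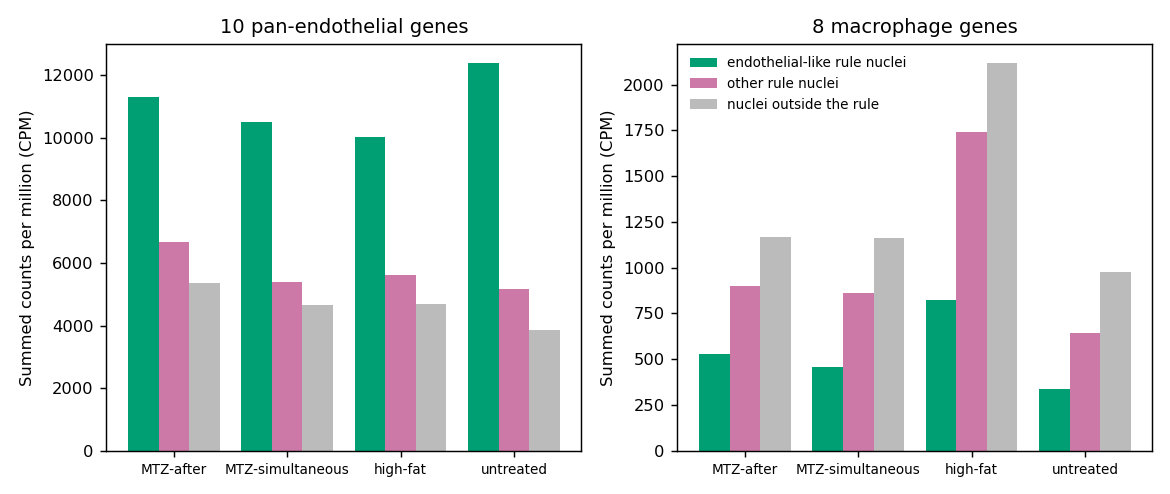
Summed CPM of 10 pan-endothelial genes (left) and 8 macrophage genes (right) in endothelial-like rule nuclei, other rule nuclei and nuclei outside the rule, by library. The endothelial-like bars are the highest on the left and the lowest on the right in every library, and macrophage genes are highest in the high-fat library in all 3 sets of nuclei. The endothelial-like subcluster was chosen by the sum of the genes on the left.

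At the limits of the rule the change was gradual. Nuclei with exactly 3 rule genes, just inside, had 6986, 6392, 5759.9 and 6497 CPM of pan-endothelial genes in MTZ-after, MTZ-simultaneous, high-fat and untreated, and nuclei with exactly 2, just outside, had 6003, 4716, 5029 and 5107 CPM. Nuclei with exactly 1 excluded gene had 7808, 7379, 6409 and 7688 CPM, beside 7662, 7165, 6074 and 6858 CPM with exactly 2.

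On GRCm38 the genes that return below lie at chr3:145758675-145894277 (Ddah1), chr13:42301476-42307990 (Edn1), chr5:47983138-48307733 (Slit2) and chr8:72319033-72321656 (Klf2), all on the plus strand. The levels of the rule genes describe the choice and are no finding. In endothelial-like nuclei the 9 genes summed to 7466 CPM in MTZ-after, 8679 in MTZ-simultaneous, 8495 in high-fat and 8097 in untreated, and in nuclei outside the rule to 1751, 2112, 2441 and 1385 CPM. Ddah1 had 177, 233, 269.9 and 191 CPM in endothelial-like nuclei. Edn1 had 476, 370.5, 557 and 543 CPM, with high-fat and untreated close together. Bmp6 had 2671, 2967, 2956 and 3386 CPM, a narrow range. Slit2 varied most, with 361 CPM in MTZ-after, 367 in MTZ-simultaneous, 645 in high-fat and 217 in untreated, while Frmd5 was highest in MTZ-simultaneous (3094 CPM, against 2132, 2294 and 2139 in MTZ-after, high-fat and untreated). Sox4 (198 to 323 CPM), Kif26b (403 to 605), Nfasc (116 to 174) and Atp8b1 (727 to 849) varied less than Slit2.

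Genes that the rule did not use were set against 2330 nuclei outside the rule with markers of the Lrrc3b type of endothelium, a set with 9138, 10779, 7908 and 12277 CPM of pan-endothelial genes in MTZ-after, MTZ-simultaneous, high-fat and untreated. As the subcluster was formed from the same genes, this is a description without a test. The genes with the highest ratio of CPM in endothelial-like to Lrrc3b-type nuclei, as the median over libraries, were Cdca7l (3.27), Pcdh15 (2.6), Ccdc60 (2.54), Fam155a (2.45) and Frzb (2.42), the last a secreted Wnt antagonist. Fam155a was not higher in MTZ-after, at a ratio of 0.885, against 2.21, 2.7 and 2.86 in MTZ-simultaneous, high-fat and untreated. Thbs1 (2.13), which encodes the matrix glycoprotein thrombospondin 1, Plvap (2.13), Lrg1 (2.06), a secreted glycoprotein that acts on TGF-beta signalling, and Kdr (2.06), the main VEGF receptor of endothelium, were also among the first 15. Nuclei with capillary-type markers numbered 7172 but were rich in adipocyte genes and were not used as a reference.

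The first comparison asked what high-fat food went with in these nuclei. In endothelial-like nuclei of the high-fat library the flow-linked factors Klf2 and Klf4 and several early-response factors were at least 2-fold lower than in untreated nuclei, whereas the muscarinic receptor gene Chrm2 was 4.02-fold higher. Genes at least 2-fold higher numbered 568 of 9522 (5.97%) and genes at least 2-fold lower 95 (0.998%), among genes with at least 50 counts in the library with the higher level. Of these, 257 (45.2%) and 33 (34.7%) passed the same limits in the same direction in nuclei outside the rule. Among all genes outside the rule, 1113 of 16119 passed upwards and 1215 downwards. Over all 14844 genes with at least 10 counts in endothelial-like nuclei the median log2 ratio was 0.12, with 9350 higher and 5494 lower. The genes called depended on how the nuclei were taken: a second clustering seed called 465, of which 420 were among the 663, and a choice of rule nuclei by at least 5 pan-endothelial genes, without clustering, called 1000, of which 433 were.

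Macrophage and smooth muscle RNA moved with this comparison. In endothelial-like nuclei the 8 macrophage genes summed to 825 CPM in high-fat and 337 in untreated, 8 of 8 were higher (median log2 ratio 1.98) and 6 passed the 2-fold limit. This list (Csf1r, Ms4a7, Adgre1, Mrc1, Msr1, Mertk, Cd84, Ptprc) holds 2 genes that the rule limited, Csf1r and Ms4a7, and without them the sums were 795 and 330.0 CPM, with 6 of 6 higher and 5 past 2-fold. Smooth muscle genes without Myh11, also limited by the rule, summed to 421 CPM in high-fat and 264 in untreated (6 of 7 higher, 5 past 2-fold, median 1.36), and fibroblast genes without Pdgfra to 1005 and 862 CPM. The 10 pan-endothelial genes moved the other way, with 10 of 10 lower in high-fat (median -0.27, none past 2-fold). In both libraries no macrophage, smooth muscle or fibroblast marker was at 0. UMIs for at least 2 macrophage genes were found in 24.9% of these nuclei in high-fat and 10.6% in untreated. The part of such RNA in the gene differences was not tested, and for that reason named genes had to be at least 2 times as abundant as in nuclei outside the rule of the same library.

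Klf2, the Kruppel-like factor induced by steady flow, had 329 CPM in high-fat (interval 312 to 346) and 832 CPM in untreated (802 to 862), a ratio of 0.396 (0.372 to 0.421). MTZ-after had 355 CPM and MTZ-simultaneous 249 CPM, so untreated stood above the other 3 libraries. The same direction with a smaller gap was seen in nuclei outside the rule, at a ratio of 0.623. Klf4, its relative, had 125 CPM in high-fat and 298 CPM in untreated (ratio 0.419, 0.378 to 0.464). Of the 19 flow-response genes Klf2 and Klf4 passed the limit downwards and 1 upwards, Ccn2, a matrix-associated target of YAP (201 CPM in high-fat, 94.8 in untreated). The list's median was -0.23 (4 higher, 15 lower). Nos3, the endothelial nitric oxide synthase, had 349 CPM in high-fat and 401 CPM in untreated (ratio 0.871), inside the limit.

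Among 15 immediate-early genes, which switch on within minutes of a stimulus and also respond to tissue handling, 14 were lower in high-fat and 4 passed the limit (median -0.56). Fosb, an AP-1 subunit, had 35.2 CPM in high-fat and 125 CPM in untreated (ratio 0.281, 0.233 to 0.337), and Nr4a1, an orphan nuclear receptor, had 54 and 159.8 CPM (0.338). Jun had 92 CPM in high-fat and 189 in untreated (0.486) and Atf3 had 28.8 and 60.0 CPM (0.479). Fos (261 CPM in high-fat, 289 in untreated) and Egr1 (243 and 269.7 CPM) lay close to equal. Of 20 endothelial transcription factors without Sox4, 19 were lower (median -0.37), and Klf2 and Klf4 were the 2 past the limit. The pan-endothelial median of -0.27 stands beside these lists, and its part in them was not tested.

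The other genes that the naming rule gave as lower were 10 of the 12 listed out of 33 that were eligible, besides Klf2 and Fosb. Lcn2, an iron-siderophore binding protein, was furthest apart, at 4.42 CPM in high-fat and 41.4 CPM in untreated (ratio 0.107, 0.0635 to 0.171), with a ratio of 0.877 in nuclei outside the rule. Dkk2, a secreted Wnt modulator, had 119.9 CPM in high-fat and 359.8 CPM in untreated (0.333, 0.301 to 0.369), against a ratio of 0.856 outside the rule. Adamts1, a secreted protease that cleaves versican, had 76.8 and 248 CPM (0.31), and Ptgs2, the inducible cyclooxygenase, had 61.9 and 167 CPM (0.371).

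Car8, a carbonic anhydrase-related protein without enzyme activity, had 134 CPM in high-fat and 374 CPM in untreated (ratio 0.358). Pcdh15, a protocadherin, had 119.7 and 318 CPM (0.376) and Fam155a, a partner of the sodium leak channel NALCN, had 199 and 507 CPM (0.392). Hs6st2, a heparan sulfate sulfotransferase, had a ratio of 0.299, Cadm3, an adhesion molecule, 0.296, and Rnd1 0.351. Hs6st2 ran the other way outside the rule, at a ratio of 2.41, and its own ratio was inside the limit at 0.53 after thinning and at 0.816 when rule nuclei were taken by at least 5 pan-endothelial genes in place of the subcluster. Fosb and Adamts1 also passed the limit outside the rule, at 0.385 and 0.432. The naming rule favoured genes that differ from nuclei outside it, so these ratios are a description of the 12. In Lrrc3b-type nuclei the ratios were 0.32 for Klf2, 0.354 for Klf4, 0.383 for Dkk2 and 0.505 for Lcn2, in the same direction.

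All 6 genes eligible as higher are named. Slit2 had 645 CPM in high-fat (622 to 669) and 217 CPM in untreated (202 to 232), a ratio of 2.98 (2.75 to 3.22). It is a rule gene, so nuclei rich in it were favoured in both libraries, and its ratio outside the rule was 1.49. Chrm2, the muscarinic acetylcholine receptor M2, had 58.4 and 14.5 CPM (ratio 4.02, 2.98 to 5.51). P4ha3, a subunit of the enzyme that hydroxylates collagen prolines, had 33.4 and 11.5 CPM (2.9), and Ccdc60 had 84.5 and 34 CPM (2.49). The ratios of Chrm2, P4ha3 and Ccdc60 outside the rule were at least as high, at 4.32, 5.39 and 3.73. Pcdhb14 (2.15) and Hoxb9 (2.08) lay close to the limit and fell inside it, at 1.98 and 1.92, with trimmed mean of M-values (TMM) scaling.

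**Figure D3:**
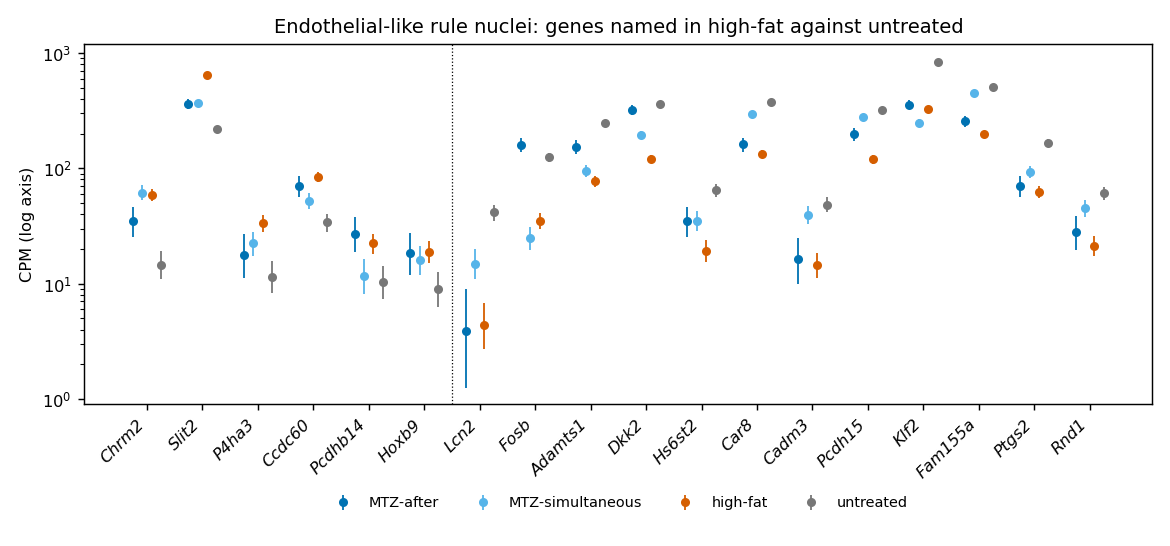
CPM on a log axis of the 18 genes named for high-fat against untreated in endothelial-like rule nuclei, with points for MTZ-after, MTZ-simultaneous, high-fat and untreated and bars for the 95% counting interval. Genes left of the dotted line are higher in high-fat than in untreated and genes right of it lower, and for Fosb and Dkk2 the MTZ-after point lies near the untreated one.

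**Figure D4:**
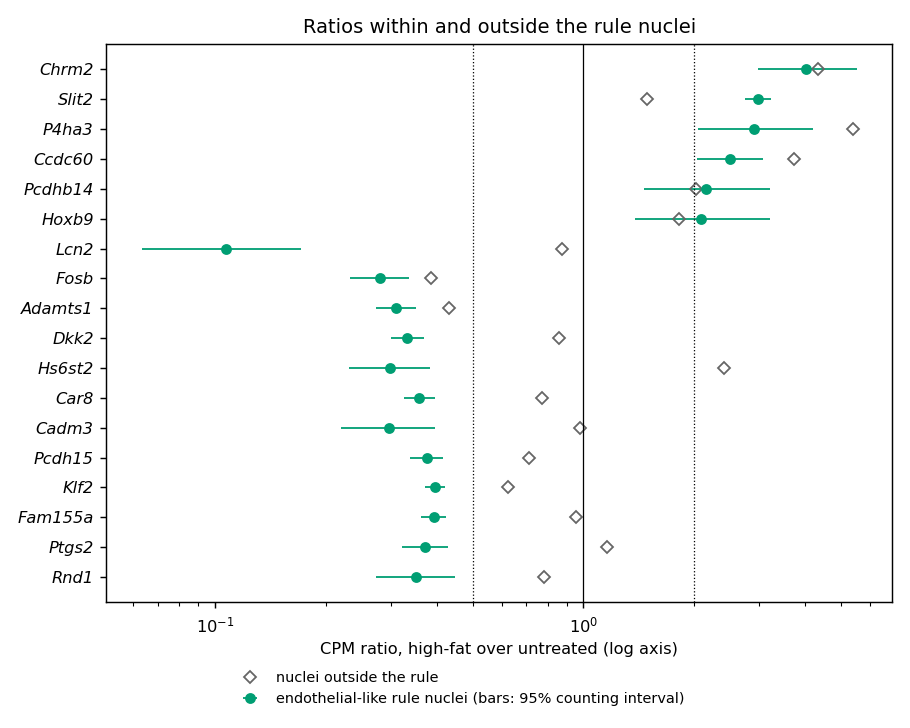
CPM ratio of high-fat over untreated on a log axis for the same 18 genes, in endothelial-like rule nuclei (filled, with the 95% counting interval) and in nuclei outside the rule (open). The genes were named for levels at least 2 times those outside the rule, which favours a gap between the points. For 10 of the 12 lower genes the open point lies inside the dotted 2-fold lines or above them, and for Chrm2, P4ha3 and Ccdc60 it lies at or above the filled one.

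Several pathway lists hold 1 gene that the rule selected on (Ddah1 in nitric oxide and ADMA, Edn1 in vasoactive, Bmp6 in BMP, Slit2 in Slit and Robo, Kif26b in Wnt, Sox4 among transcription factors), and these lists are given without that gene, in this comparison and the others. A list's median covers genes with at least 10 counts, and fewer reach the 50 counts needed to pass the limit. Of 12 nitric oxide and ADMA genes, 11 entered the median of -0.13, and none of the 8 with 50 counts passed. Ddah2, the second ADMA-degrading enzyme, had 17.3 CPM in high-fat and 19.7 in untreated. Of 16 endothelin and vasoactive genes, 11 entered the median of -0.27 and Ptgs2 alone passed among the 7 with 50 counts, while Ece1, which releases active endothelin, had 532 CPM in high-fat and 644 CPM in untreated (ratio 0.827). Of 20 BMP signalling genes 18 entered the median of -0.11 and 15 had 50 counts. Bmper, a secreted BMP modulator, was past the limit (40.5 and 18.6 CPM, ratio 2.17), though its ratio outside the rule was 0.742. Id1, a direct target of BMP receptors, had 103 CPM in high-fat and 193 CPM in untreated (0.532). Among the 18 Slit, Robo and guidance genes other than Slit2, which the rule selected on, none passed (6 higher, 12 lower, median -0.11). The receptors Robo4 (18.1 CPM in high-fat, 12.9 in untreated) and Robo1 (47.6 and 65.8 CPM) stayed within 2-fold. Of the 17 Wnt and planar polarity genes Dkk2 alone passed among 9 with 50 counts (median -0.21), and none of 16 arterial and Notch genes with 50 counts did (median -0.13 over 18). Tll1, a metalloprotease of the matrix list, had 44.7 CPM in high-fat and 118 CPM in untreated (0.378), with 0.439 outside the rule.

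Leukocyte adhesion genes were not higher in high-fat as a list: 12 of 18 were lower (median -0.39), beside a pan-endothelial median of -0.27. Vcam1, the adhesion molecule for monocytes and lymphocytes, had 444 CPM in high-fat (425 to 464) and 841 CPM in untreated (812 to 872), Selp had 208 and 386 CPM, and Sele had 44.7 and 80.3 CPM, with ratios of 0.527, 0.538 and 0.556. Outside the rule the same genes had ratios of 1.68, 1.43 and 1.42, but in Lrrc3b-type nuclei, which are endothelial, 0.588, 0.655 and 0.505. Icam1 had 101 CPM in high-fat and 92.6 CPM in untreated, and Cxcl16, a chemokine also made by macrophages, passed the limit upwards (44.2 and 20.8 CPM).

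Interferon-response genes were higher in 13 of 15 cases (median 0.47), with Iigp1, an interferon-induced GTPase, at 244 CPM in high-fat and 101 CPM in untreated (ratio 2.42) and Gbp3 at 32.1 and 14 CPM (2.29). Their ratios outside the rule were 3.22 and 2.2. All 14 genes of the endoplasmic reticulum stress list were higher, none of them past the limit (median 0.30), and 14 of 15 cell cycle genes were higher, with Kif15 and Anln past it (median 0.48). Medians of these 2 lists outside the rule were larger, at 0.64 (13 of 14 higher) and 0.96 (15 of 15 higher). Of 23 lipid handling genes, Lrp1, Lpl, Abcg1 and Angptl4 were past the limit upwards and Olr1, the oxidised-LDL receptor of endothelium, downwards (8.63 CPM in high-fat, 24.4 in untreated). The list's median of 0.64 was -0.06 with the choice by 5 pan-endothelial genes. Lrp1, Lpl and Abcg1, which macrophages also express, had 124, 246 and 135 CPM in endothelial-like nuclei of high-fat, against 329.6, 650.1 and 297 CPM outside the rule. In the list for endothelial-to-mesenchymal transition (EndMT) 15 of 21 were higher (median 0.37) and Acta2, Tagln and Col1a1 passed. Col1a1, a fibroblast collagen, had 262 CPM in high-fat and 31.5 CPM in untreated (8.32), with 477 and 105 CPM outside the rule.

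The second comparison set nuclei of mice given methoxazolamide after disease was present against high-fat. In endothelial-like nuclei Fosb was 4.55-fold and Dkk2 2.67-fold higher in MTZ-after, the chemokine gene Cx3cl1 was higher, and macrophage genes were lower. Genes at least 2-fold higher numbered 116 of 9429 (1.23%) and genes at least 2-fold lower 237 (2.51%), of which 88 (75.9%) and 94 (39.7%) did the same outside the rule. Among all genes outside the rule, 2179 of 15988 passed upwards and 422 downwards. The median over all genes in endothelial-like nuclei was -0.01 (7095 higher, 7411 lower). This library and the next share the high-fat library as their comparator, so the comparisons with it are not independent of each other or of the first. MTZ-after was also the shallowest, since 1294252 UMIs stood behind its endothelial-like nuclei, against 3082405 in MTZ-simultaneous, 4520667 in high-fat and 3648773 in untreated.

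Fosb had 159.9 CPM in MTZ-after (139 to 183) and 35.2 CPM in high-fat (29.9 to 41.1), a ratio of 4.55 (3.68 to 5.63), and outside the rule the ratio was 3.5. Dkk2 had 321 CPM in MTZ-after and 119.9 CPM in high-fat (2.67, 2.35 to 3.04), with 1.53 outside the rule. Cx3cl1, the membrane-bound chemokine fractalkine, had 45.6 and 19.2 CPM (2.37, 1.67 to 3.33), and its ratio outside the rule was 1.2. The other 4 genes eligible as higher were Mecomos, a transcript annotated opposite Mecom (81.9 and 29 CPM), Clec9a, known as a receptor of dendritic cells (41.7 and 17.3 CPM), Nxpe2 (129.8 and 64.4 CPM) and Slc16a9, a monocarboxylate carrier family member (41 and 20.1 CPM). Nxpe2 and Slc16a9 lay inside the limit with TMM scaling, at 1.95 and 1.96, and Slc16a9 at 1.31 with the choice by 5 pan-endothelial genes. Mecomos lies within the span of Mecom on the other strand, and whether any of its reads belong to Mecom was not tested. The 4 genes eligible as lower were weakly counted: Spaar (19.3 CPM in MTZ-after, 42.3 in high-fat), Atoh8 (8.5 and 17.9), Mapk11 (6.95 and 15.5) and Tnfrsf22 (6.18 and 13.5).

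Klf2 had 355 CPM in MTZ-after and 329 CPM in high-fat, and the interval of their ratio (1.08, 0.971 to 1.20) includes 1. Klf4 had 199 and 125 CPM (1.59, 1.37 to 1.84). In the flow-response list Kdr was past the limit upwards (64.1 and 27.2 CPM, 2.36), though by more outside the rule (3.14), and Hmox1, the haem-degrading enzyme, downwards (6.18 and 15.9 CPM), with a list median of -0.16. Immediate-early genes were higher in 12 of 15 cases with Fosb past the limit (median 0.26). Adhesion genes were higher in 12 of 18 (median 0.22), with Cx3cl1 past it and Vcam1 at 562 CPM in MTZ-after and 444 CPM in high-fat (1.27). Among growth factor genes Kdr, Vegfc (239.5 and 108 CPM) and Igfbp5 (209 and 84.3 CPM) were past the limit upwards, with ratios of 3.14, 1.95 and 3.11 outside the rule.

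Cell cycle genes were lower in 13 of 14 cases (median -0.77, with Top2a and Kif11 past the limit), and endoplasmic reticulum stress genes in 11 of 14 (median -0.28, none past it). In nuclei outside the rule the medians were -0.77 (14 of 15 lower) and -0.66 (13 of 14 lower). The interferon list was higher in 14 of 15 (median 0.28, none past it), with Iigp1 at 376 CPM in MTZ-after and 244 CPM in high-fat (ratio 1.54). The nitric oxide list had a median of 0.19 with Gucy1a1, a subunit of the nitric oxide receptor, past the limit (41 and 18.4 CPM), and a ratio of 2.49 outside the rule. In the endothelin and vasoactive list (median 0.18) Ptgs1, the constitutive cyclooxygenase, was past it (50.2 and 21.7 CPM). No gene of the BMP list (median -0.07) or the Slit and Robo list (median -0.05) passed. The macrophage genes summed to 530.0 CPM in MTZ-after and 825 in high-fat, with 7 of 8 lower and Ms4a7, Msr1 and Cd84 past the limit (519 and 795 CPM, with 5 of 6 lower, without the genes that the rule limited). The adrenal cortex list stood at 78.8 CPM in MTZ-after and 3.98 in high-fat, where 3 of its 6 genes were at 0. Their part in the gene differences was not tested.

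The third comparison set nuclei of mice given methoxazolamide together with high-fat food against high-fat alone. The peptide hormone gene Nts and the sulfotransferase gene Hs3st4 were counted in numbers almost only in MTZ-simultaneous, several genes that were low in high-fat stood higher, and Nos1 and Iigp1 were lower. Genes at least 2-fold higher numbered 108 of 9507 (1.14%) and genes at least 2-fold lower 261 (2.75%), of which 64 (59.3%) and 118 (45.2%) did the same outside the rule. The numbers depended on the setting: they were 140 and 189 with equal weight per nucleus, 30 and 132 after thinning, and 206 and 466 with the choice by 5 pan-endothelial genes. A second clustering seed gave 128 lower genes, and of all 369 called genes 213 were called with it. The median over all genes was 0.02 (7864 higher, 7134 lower). In nuclei outside the rule 1279 of 15606 genes passed the 2-fold limit upwards and 397 downwards.

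Nts, which encodes neurotensin, had 36 CPM in MTZ-simultaneous (111 UMIs, interval 29.6 to 43.4) and 0.664 CPM in high-fat (3 UMIs), a ratio of 54.3 (18.1 to 267). MTZ-after had 1 UMI and untreated 20, at 0.773 and 5.48 CPM. Hs3st4, a heparan sulfate 3-O-sulfotransferase, had 46.1 CPM in MTZ-simultaneous (38.8 to 54.3), 2.65 in high-fat and 0.548 in untreated, and no UMI in MTZ-after, which allows up to 2.85 CPM. Outside the rule these genes were also higher in MTZ-simultaneous than in high-fat, at ratios of 4.9 and 4.95.

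Fam155a had 451 CPM in MTZ-simultaneous and 199 CPM in high-fat (ratio 2.27, 2.08 to 2.47), beside 507 CPM in untreated. Pcdh15 had 276 and 119.7 CPM (2.31), Car8 293 and 134 CPM (2.19), Cadm3 39.6 and 14.4 CPM (2.75) and Rnd1 45.1 and 21.2 CPM (2.12), and all 5 were named above as lower in high-fat than in untreated. These values rest on the same high-fat library. With a second clustering seed Pcdh15 and Car8 lay inside the limit, at 1.99 and 1.96. The other named higher genes were Ncam2, a neural adhesion molecule (73.6 and 19.9 CPM), Kcnc2, a potassium channel (105 and 35.6 CPM), Brinp1 (45.4 and 14.6 CPM), Syt7, a calcium sensor of vesicle fusion (53.2 and 21.7 CPM), and Zfp46 (21.7 and 8.41 CPM). They are 12 of 16 that were eligible.

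Nos1, the neuronal nitric oxide synthase, led the 5 lower genes with 8.43 CPM in MTZ-simultaneous (5.51 to 12.4) and 35.8 CPM in high-fat (30.5 to 41.8), a ratio of 0.235 (0.149 to 0.358), and had 0.303 outside the rule. MTZ-after and untreated had 41.7 and 20.8 CPM, so MTZ-simultaneous was the lowest of the 4 libraries. Tc2n had 34.4 CPM in MTZ-simultaneous and 90.9 CPM in high-fat (0.378), and Spaar, which encodes a small polypeptide that limits mTORC1 activation, 20.1 and 42.3 CPM (0.476). Myoz3 (5.84 and 13.5 CPM) and Ssu2 (10.4 and 21 CPM) were the others.

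Klf2 had 249 CPM in MTZ-simultaneous and 329 CPM in high-fat (ratio 0.757, 0.693 to 0.827), so in neither library with methoxazolamide did it come near the 832 CPM of untreated. The flow-response list had a median of -0.05 with Hmox1 past the limit downwards. Immediate-early genes were lower in 13 of 15 (median -0.50) with Fos past the limit (109 CPM in MTZ-simultaneous, 261 in high-fat). Fosb had 24.7 and 35.2 CPM (0.701, 0.526 to 0.927), so it was far from its MTZ-after level. Interferon genes were lower in 11 of 15 (median -0.34), Iigp1 being past the limit at 90.2 and 244 CPM (0.369). Cell cycle genes were lower in 13 of 15 (median -0.88, with Kif11, Diaph3 and Anln past the limit), and endoplasmic reticulum stress genes in 12 of 14 (median -0.31).

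Adhesion genes were higher in 12 of 18 (median 0.22, none past the limit), with Vcam1 at 518 CPM in MTZ-simultaneous and 444 CPM in high-fat. In the vasoactive list (median 0.22) Ednrb, the endothelin receptor of endothelium (21.4 and 8.18 CPM), and Ptgs1 (50.6 and 21.7 CPM) were past the limit, with ratios of 3.02 and 2.56 outside the rule. The carbonic anhydrase and bicarbonate transport list, which holds the drug's named target, had a median of 0.30 with 8 of 15 higher and Car8 alone past the limit. Car1 itself had 177 CPM in MTZ-simultaneous and 129.8 CPM in high-fat (1.36, 1.21 to 1.53), and 91.9 CPM in MTZ-after (0.708 against high-fat). Outside the rule, by the Car1 levels given earlier, it was likewise higher in MTZ-simultaneous and lower in MTZ-after than in high-fat. The macrophage genes summed to 458 CPM in MTZ-simultaneous and 825 in high-fat (8 of 8 lower, 5 past the limit; 6 of 6 and 4 without the genes that the rule limited) and the mesothelial genes without Muc16 to 53.9 and 2.43 CPM. Their part in the gene differences was not tested.

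**Figure D5:**
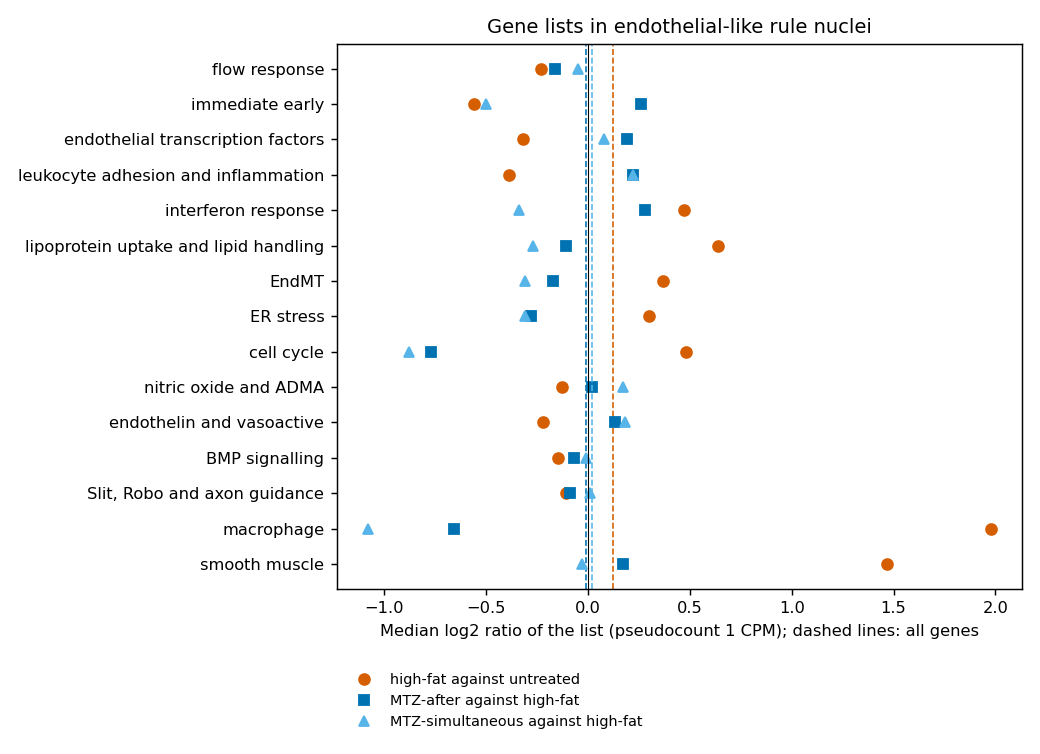
Median log2 ratio (pseudocount of 1 CPM) of 15 gene lists in endothelial-like rule nuclei for the 3 comparisons, with dashed lines at the median over all genes (0.12, -0.01 and 0.02). The plotted lists are whole, rule genes included. Macrophage genes lie highest in high-fat against untreated (1.98) and lowest in MTZ-simultaneous against high-fat (-1.08), and cell cycle genes lie low in both comparisons of methoxazolamide with high-fat. Outside the rule the cell cycle median in MTZ-after against high-fat was -0.77.

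Over all rule nuclei the comparisons mixed the nuclei's kinds. Past the 2-fold limit in high-fat against untreated lay 1000 of 13541 genes upwards (7.38%) and 343 downwards (2.53%). The numbers were 661 of 13639 (4.85%) and 504 (3.7%) in MTZ-after against high-fat, and 351 of 13544 (2.59%) and 536 (3.96%) in MTZ-simultaneous against high-fat. Between 51.1 and 92.1% of these did the same outside the rule, the highest share being that of the genes higher in MTZ-after. Outside the rule the genes higher in MTZ-after were also the most numerous, at 2179 of 15988. Brown adipocyte genes were past the limit downwards in 6 of 6 cases in high-fat against untreated, adrenal cortex genes upwards in 6 of 6 in MTZ-after and mesothelial genes upwards in 6 of 6 in MTZ-simultaneous, as in the subclusters. Ucp1 and Muc16 are genes that the rule limited, and the other 5 of each list passed as well.

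The naming rule gave 5 genes higher and 12 of 16 lower in high-fat against untreated over all rule nuclei. All rule nuclei include the endothelial-like ones, so genes named in both sets are no second result. Chrm2, P4ha3, Slit2 and Ccdc60 were also among the higher ones, with ratios of 2.54, 2.6, 2 and 2.18, together with Onecut3. Slit2 is a gene that the rule selected on, so its level is no finding. Lcn2, Dkk2, Fam155a, Pcdh15, Car8, Cadm3, Rnd1 and Ptgs2 were also among the lower ones (0.186 to 0.465). With them were Ackr1, the chemokine-binding receptor of venules, Hecw1, Hmga2 and Slc26a4. Hecw1 had the opposite direction when 4 rule genes were required (3.26) or nuclei were thinned (1.86). Klf2 had 218 CPM in high-fat and 543 CPM in untreated over all rule nuclei (0.401) without being named, since its level was under 2 times that outside the rule. In MTZ-after against high-fat Dnah11 and Dkk2 (2.11) were named as higher and Onecut3 and Adamts4 as lower. In MTZ-simultaneous against high-fat the 9 higher genes included Hs3st4 (18.9), Nts (13.5), Brinp1 (3.52), Cadm3 (2.5) and Fam155a (2.26) beside Rmst, Galnt14, Tmem212 and Ugt8a, of which Rmst was at 0.966 after thinning, and the lower ones were Fam124b and Onecut3.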

How the data were processed

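Single-nucleus 3' RNA libraries of mouse aortic tissue, 1 per group, were deposited as UMI counts per gene and nucleus. The counts were made with Cell Ranger 7.0.1, per the file headers, with STAR and mm10 named in the submitters' processing notes; whether intronic reads and strand were used is not given in the sources used here. The 4 libraries held 31517272 (MTZ-after), 37962370 (MTZ-simultaneous), 50358151 (high-fat) and 69201159 (untreated) UMIs over all deposited barcodes. Of these barcodes 23, 74, 98 and 74 failed the limits of at least 300 genes and at most 10% mitochondrial UMIs.

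Members and gene lists were chosen with earlier results of these data known. Counts were summed per library over rule nuclei, their endothelial-like subcluster and nuclei outside the rule, and expressed as CPM. Intervals are exact Poisson for CPM, Clopper-Pearson for shares and conditional exact for ratios, at 95%. A gene was called at a CPM ratio of at least 2 either way with at least 50 counts in the higher library. List medians used log2 ratios with a pseudocount of 1 CPM over genes with at least 10 counts. Named genes were those called, with a CPM at least 2 times that outside the rule in the same library, the first 12 per direction by the interval bound nearest to 1, leaving out mitochondrial, ribosomal, haemoglobin, sex-linked and unnamed predicted genes. List genes are named where they passed the limit or bear on a result, chosen with their values seen; most lists are not written out in full. Counts of pathway lists leave out genes that the rule selected on, an alternative chosen after seeing the data.

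Rule nuclei were clustered with scanpy 1.11.5 (2000 variable genes, 30 principal components, 20 neighbours, Leiden resolution 0.5) in Python 3.11.15, with scipy 1.17.1. The subcluster was separated after the mixture had been seen. The doublet caller's automatic threshold marked 0 nuclei in MTZ-after, 1 in MTZ-simultaneous, 0 in high-fat and 0 in untreated and had not worked, so no doublet was removed, and leaving out the highest 8% of scores was an alternative. Nuclei for the background of macrophages were taken by at least 4 macrophage genes, in place of a narrower definition planned at first. TMM factors came from edgeR 4.0.16 in R 4.3.3, for scaling only. The calling step was tested on simulated counts with known changes in 200 genes. These counts were drawn from summed totals with counting error only, so summing over nuclei and clustering were not tested. Promoter windows came from RefSeq GRCm38.p6.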

Additional observations from a re-analysis of the deposited data

How the results depend on the processing

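No paired analysis was possible because each group was 1 library, and no library could be left out. In the order MTZ-after, MTZ-simultaneous, high-fat and untreated, the share of rule nuclei was 28.3, 30, 55.8 and 26.3% with at least 2 marker genes, 5.09, 8.24, 17.9 and 6.71% with at least 4, 6.28, 6.34, 20.9 and 5.35% with no excluded gene, 15.6, 23.6, 39.2 and 19.6% with at most 2, 5.58, 6.27, 14.7 and 4.13% after thinning to 500 UMIs, and 14.7, 19.5, 38 and 16.4% of nuclei with 2 pan-endothelial genes. It was 13.6% in MTZ-after with at least 500 genes and at most 5% mitochondrial UMIs, and 33.4% in high-fat without the highest 8% of doublet scores.

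Counts of called genes are given as higher and lower, for high-fat against untreated, MTZ-after against high-fat and MTZ-simultaneous against high-fat in turn. With no minimum count they were 4798 and 2661, 4848 and 3368, and 3581 and 3505 in rule nuclei, and 4483 and 1875, 3448 and 3559, and 2815 and 3153 in endothelial-like nuclei. After thinning, endothelial-like nuclei gave 333 and 49, 41 and 148, and 30 and 132. In rule nuclei 195 were lower in the first comparison after thinning and 208 with at least 4 marker genes, 271 and 344 were higher in the second, and 154 and 203 in the third. In endothelial-like nuclei at least 4 marker genes gave 76 higher in the second comparison, and clustering seed 1 gave 365 higher in the first, 126 lower in the second and 128 lower in the third. The choice by at least 5 pan-endothelial genes gave 263 lower in the first, 365 higher and 445 lower in the second, and 206 higher and 466 lower in the third. TMM scaling gave 595 higher and 635 lower in MTZ-after and 283 higher and 670 lower in MTZ-simultaneous against high-fat over rule nuclei.

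Medians were taken as turned only where their size was at least 0.3 on the log2 scale. Smaller medians, such as several given above, could change sign without being counted as turned. Of the alternative medians of whole pathway lists, 488 in rule nuclei shifted by less than 0.2 and 16 by at least that. In endothelial-like nuclei 583 shifted by less than 0.2, 43 by at least that without being counted as turned, and 4 turned, as follows. In endothelial-like nuclei the median of lipid handling for high-fat against untreated was -0.06 with the choice by 5 pan-endothelial genes. For MTZ-simultaneous against high-fat the EndMT median was 0.00 with equal weight per nucleus, and that of carbonic anhydrases -0.06 with at least 4 marker genes and -0.01 after thinning. In rule nuclei Hecw1 was at 3.26 with at least 4 marker genes and 1.86 after thinning, and Rmst at 0.966 after thinning. Thinning and the stricter rule leave fewer counts, so fewer genes reach the minimum; the cause of the other differences was not tested. Of the alternative ratios of named genes, 329 in endothelial-like nuclei stayed past the limit in the same direction and 39 did not, and 168 and 20 in rule nuclei, where 3 turned. The settings on the subcluster, clustering seed 1 and 5 pan-endothelial genes, were chosen after seeing the data. Leaving rule genes out of the lists moved the nitric oxide median for MTZ-after against high-fat to 0.19, against 0.02 with Ddah1.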
